A study of Mus musculus with 10 samples.

Results

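The interferon-stimulated genes described here are 46 named mouse genes that interferons switch on, followed through 10 whole livers. The members, and the pathway lists used below, were chosen with earlier results of these data known. Shares of members set beside those of all genes therefore describe the lists and are not independent support. All 46 were among the 24537 gene symbols of the count table, and all 46 passed the filter on low counts that left 13909 genes for testing. RNA sequencing was done on livers of male mice that had received an adeno-associated virus of serotype 8 (AAV8) carrying the saCas9 nuclease under the hepatocyte promoter TBG and a guide RNA under the U6 promoter. Young controls (9 months old, virus at 7 months, n = 3) and old controls (25 months old, virus at 23 months, n = 3) received a guide against Rosa26, a locus widely used as a neutral editing target. Old mice of the same age and injection schedule received a guide against Cd44, which encodes a cell surface receptor for hyaluronan. Of these, 2 livers are labelled guide 4 and 2 are labelled guide 2. Every liver had thus been exposed to the virus and to Cas9, and no untreated liver was analysed here. Editing was directed to hepatocytes, whereas RNA came from all cells of the liver.

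Interferons are secreted signals against viruses. Type I interferons bind the IFNAR receptor and act through the kinases JAK1 and TYK2 and a transcription factor complex that includes STAT2 and IRF9 and binds the interferon-stimulated response element (ISRE) in the promoters of target genes. Type II interferon binds the IFNGR receptor and acts mainly through the gamma-activated sequence (GAS). In liver, hepatocytes, Kupffer cells and endothelial cells can all respond, and the induced proteins sense foreign RNA, degrade it, block viral translation or attack the membranes around intracellular microbes.

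Promoter sequence shows what many of these genes share. RefSeq promoter entries (build GRCm38.p6, 250 bases before to 50 bases after the start site) were found for 33 of the 46 genes. The ISRE core, searched on both strands as GAAA and GAAA separated by 2 bases of any kind, was present in 18 of these 33, a share of 54.5% (95% exact binomial interval 36.4 to 71.9%), against 3.99% of 27025 symbols in the whole table. The GAS, searched as TTCNNNGAA, which reads the same on both strands, was present in 8 of the 33 (24.2%, 11.1 to 42.3%), against 9.55% of all symbols. Both motifs stood in 5 promoters and neither stood in 12. The members on the list are well-known interferon targets, so this share describes the list and is not a finding of these livers. Stretches of 60 bases, all upstream of the RefSeq start site, are printed for 7 members whose levels carry the results below. Capitals mark the ISRE core, which reads TTTC and TTTC with 2 bases between them where it lies on the opposite strand.
Ifit1: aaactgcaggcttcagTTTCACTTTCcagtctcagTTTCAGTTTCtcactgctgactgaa
Ifit3: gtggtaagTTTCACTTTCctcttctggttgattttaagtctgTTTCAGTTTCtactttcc
Oas1a: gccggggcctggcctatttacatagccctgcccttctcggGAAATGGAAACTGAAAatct
Oas1g: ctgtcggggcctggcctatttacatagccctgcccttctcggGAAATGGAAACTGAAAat
Rsad2: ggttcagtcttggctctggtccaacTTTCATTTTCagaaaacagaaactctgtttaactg
Isg15: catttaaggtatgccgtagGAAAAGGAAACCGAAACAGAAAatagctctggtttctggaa
Igtp: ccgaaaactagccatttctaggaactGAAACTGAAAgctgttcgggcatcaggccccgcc

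The stretches lie at chr19:34640769-34640828 (+ strand) for Ifit1, chr19:34583365-34583424 (+) for Ifit3, chr5:120907526-120907585 (-) for Oas1a, chr5:120887614-120887673 (-) for Oas1g, chr12:26456538-26456597 (-) for Rsad2, chr4:156200856-156200915 (-) for Isg15 and chr11:58199496-58199555 (+) for Igtp. Ifit1 and Ifit3 each hold 2 separate cores on the opposite strand. In Oas1a and Oas1g 2 cores overlap, and in Isg15 3 cores overlap. A match is a run of letters and does not show that a factor was bound, and promoters without the core, such as those of Oasl2, Spats2l, Ifit2 and Irf7, lack only these letters in this window. Members with the core had a median log2 fold change of 0.82 in guide 2 livers against old controls, those without it 0.79 and the 13 with no promoter entry 0.67.

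Libraries held 15821198 to 21710228 counts, and 3 counts, the smallest amount treated as detected, correspond to 0.138 to 0.19 CPM (reads of a gene relative to all reads of its library). Values below are CPM with library sizes scaled by TMM, the trimmed mean of M values, so levels can be compared between livers but not between genes of different length. Cd44 did not separate the groups labelled knockout. Its level was 14.2, 30.0 and 25.9 CPM in the old controls, 18.9 and 29.0 CPM in the guide 4 livers and 17.6 and 13.1 CPM in the guide 2 livers. Against old controls its log2 fold change was -0.60 (SE 0.34) for guide 2 and 0.04 (SE 0.33) for guide 4, with edgeR quasi-likelihood adjusted p of 0.778 and 0.998. Cells other than hepatocytes also express Cd44, so whole-liver RNA is a weak check of editing, and every direction below rests on the labels. All 10 hepatocyte markers examined were detected in every group, with a summed level of 87794 to 133325 CPM. Old control replicate 2 stood apart through blood and immune cell genes, such as Ngp, a neutrophil precursor gene, at 63.0 CPM against at most 2.97 CPM in any other liver. Young control replicate 2 stood apart through the interferon-stimulated genes themselves, as described below. No label states that the livers of a group came from separate animals, so p-values measure only the spread between these samples, which may be partly technical.

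Both guide 2 livers held the interferon-stimulated genes at high levels. The mean log2 CPM of the 46 genes was 6.57 in each of them. It was 5.33, 5.61 and 5.92 in the old controls, 5.91 and 5.58 in the guide 4 livers, and 5.51, 6.21 and 5.69 in the young controls. The summed level was 6674 to 6820 CPM in guide 2 livers against 3203 to 4586 CPM in old controls. Of the 46 genes, 10 were highest in guide 2 replicate 1 and 17 in guide 2 replicate 2. Young control replicate 2 held the highest level of 12 genes, more than guide 2 replicate 1. No share over all genes is given beside these ranks. Whether more cells responded or each cell held more of these transcripts cannot be told apart in bulk RNA, just as fewer cells of a type and less RNA per cell cannot.

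**Figure D1:**
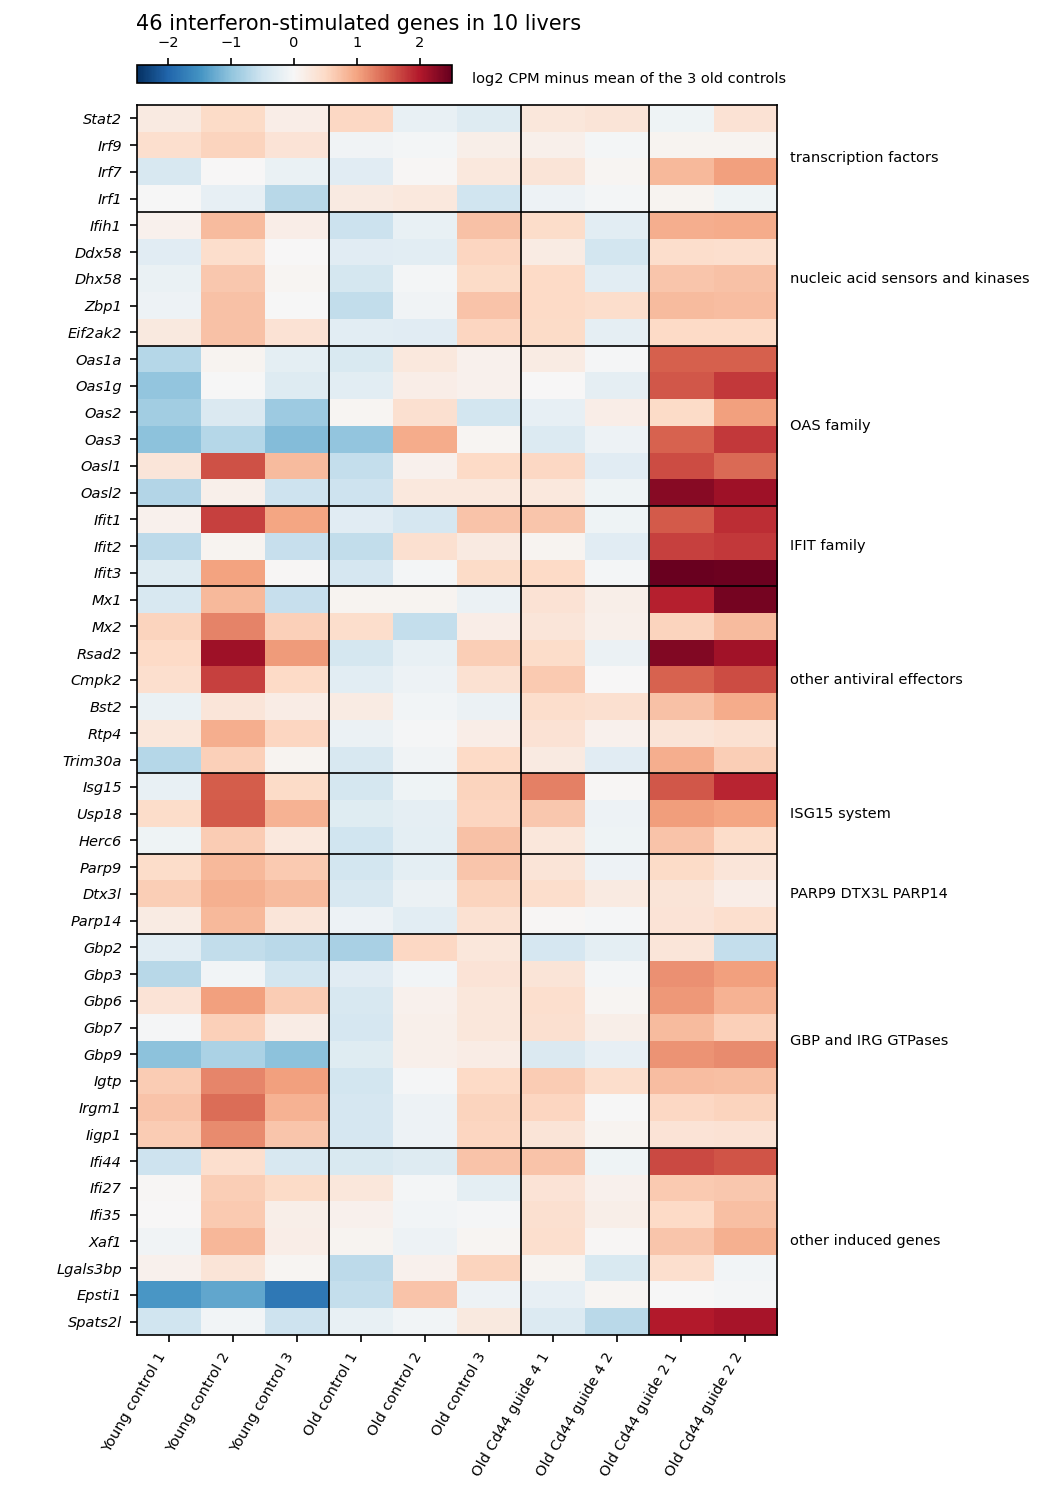
Level of each of the 46 genes (rows, grouped by role) in each of the 10 livers (columns), as log2 CPM minus the mean of the 3 old control livers; red is higher, blue is lower, and colours saturate at the ends of the scale. The guide 2 columns are red for most genes of the OAS, IFIT and other antiviral groups, and young control replicate 2 is red for many of the same rows.

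Against the 3 old controls, 43 of the 46 genes had a positive log2 fold change in the guide 2 livers, where 45.1% of all genes tested did. The median log2 fold change was 0.73 for the 46 genes and -0.03 for all genes. A log2 fold change of at least 1 was reached by 16 members (0.906% of all genes tested), and 27 had an unadjusted p under 0.05 in the higher direction (2.91%) and 0 in the lower direction (4.13%). After adjustment over all genes, edgeR called 1 member, Spats2l, at the threshold of 0.05, where 0.0216% of all genes tested passed. The count was 16 with DESeq2, 4 with limma voom, 8 with no filter on low counts and 0 in a fit of the guide 2 and old control livers alone. No share over all genes is given for these alternative fits, so their counts do not single out the members. Because edgeR called 1 member, all other member values in this comparison are given as levels and differences that did not pass the edgeR test. In 31 genes both guide 2 livers lay above each of the other 5 old livers (5.72% of all genes), and 0 genes lay below them (5.3%). In 20 genes both guide 2 livers lay above all other 8 livers, the young ones included (2.96%), and 0 lay below all 8 (2.67%). Because the list was chosen with earlier results known, these counts describe it and are not independent support.

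The change in Spats2l, which encodes an RNA-binding protein of stress granules and the nucleolus, was the largest relative to its error. The gene lies on chromosome 1 (57774162 to 57948394, + strand, GRCm38). Its level was 9.42 and 9.98 CPM in the guide 2 livers. It was 2.02, 2.19 and 2.77 CPM in the old controls, 1.80 and 1.40 CPM in the guide 4 livers and 1.59, 2.18 and 1.58 CPM in the young controls. All 8 other livers thus lay below both guide 2 livers with no overlap. Spats2l rose with guide 2 against old controls, with a log2 fold change of 2.06 and an SE of 0.25 (edgeR adjusted p = 0.0359), which is a 4.17-fold difference. Its guide 2 livers were also higher than the guide 4 livers, by a log2 fold change of 2.60 with an SE of 0.29 (edgeR adjusted p = 0.0275). Across 16 alternative fits its log2 fold change against old controls stayed between 1.97 and 2.20, while the adjusted p ranged from 7.62e-09 to 0.351 and missed 0.05 in 8 of them. Those 8 were the fit with only the groups compared and the fits without young replicate 3, old control replicate 1 or 2, either guide 4 liver or either guide 2 liver.

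Proteins of the OAS family bind RNA, and several of them make the messenger that activates RNase L. All 6 members had an unadjusted p under 0.05 in guide 2 livers against old controls, and their median log2 fold change was 1.47. Oasl2, on chromosome 5 (114896936 to 114912234, + strand), stood at 266 and 237 CPM in guide 2 livers against 38.3, 65.5 and 65.4 CPM in old controls, 66.0 and 51.0 CPM in guide 4 livers and 32.8, 60.2 and 38.3 CPM in young controls. Its log2 fold change was 2.16 (SE 0.29) with an edgeR adjusted p of 0.051, just short of the threshold, and the p ranged from 1.37e-08 to 0.351 over 16 alternative fits. No other liver came near these levels of Oasl2.

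Oas1a stood at 100.2 and 100.4 CPM in guide 2 livers and between 21.6 and 42.9 CPM in the other 8. Oas1g stood at 76.7 and 88.8 CPM against 13.03 to 29.0 CPM in the other 8. The Oas1a and Oas1g transcripts share 47.6% and 44.6% of their 75-base windows with each other, so how reads were divided between this pair is uncertain. Oas3 was 31.4 and 38.5 CPM in guide 2 livers, 5.65, 21.6 and 11.7 CPM in old controls, 8.89 and 10.3 CPM in guide 4 livers and 5.51, 6.86 and 5.26 CPM in young controls. Oas2 was 41.9 and 61.7 CPM in guide 2 livers, 31.2, 39.7 and 21.9 CPM in old controls, 26.2 and 33.6 CPM in guide 4 livers and 16.3, 23.3 and 15.9 CPM in young controls, a narrower gap than for Oas3. Oasl1 was 209 and 180.3 CPM in guide 2 livers, but young control replicate 2 reached 202 CPM, so its groups overlapped.

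IFIT proteins bind viral RNA and hinder its translation, and their genes lie next to each other on chromosome 19. The 3 members had a median log2 fold change of 1.68 with guide 2, and all 3 had an unadjusted p under 0.05. Ifit3 stood at 419 and 409 CPM in guide 2 livers, 55.9, 72.9 and 104 CPM in old controls, 106 and 72.3 CPM in guide 4 livers and 60.2, 151 and 77.0 CPM in young controls. Its difference from old controls, a log2 value of 2.41 with an SE of 0.37 (edgeR adjusted p = 0.0709), was the largest of the 46. Windows shared with its neighbour Ifit3b make up 41.1% of the Ifit3 transcript, so part of its count may belong to that gene. Ifit2 stood at 60.5 and 63.1 CPM in guide 2 livers and at most 24.2 CPM elsewhere, again without overlap. In Ifit1 the groups overlapped. It stood at 227 and 281 CPM in guide 2 livers, 64.5, 58.5 and 128 CPM in old controls and 127 and 73.1 CPM in guide 4 livers, but also at 84.1, 258 and 155 CPM in young controls, so young replicate 2 lay between the guide 2 livers.

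**Figure D2:**
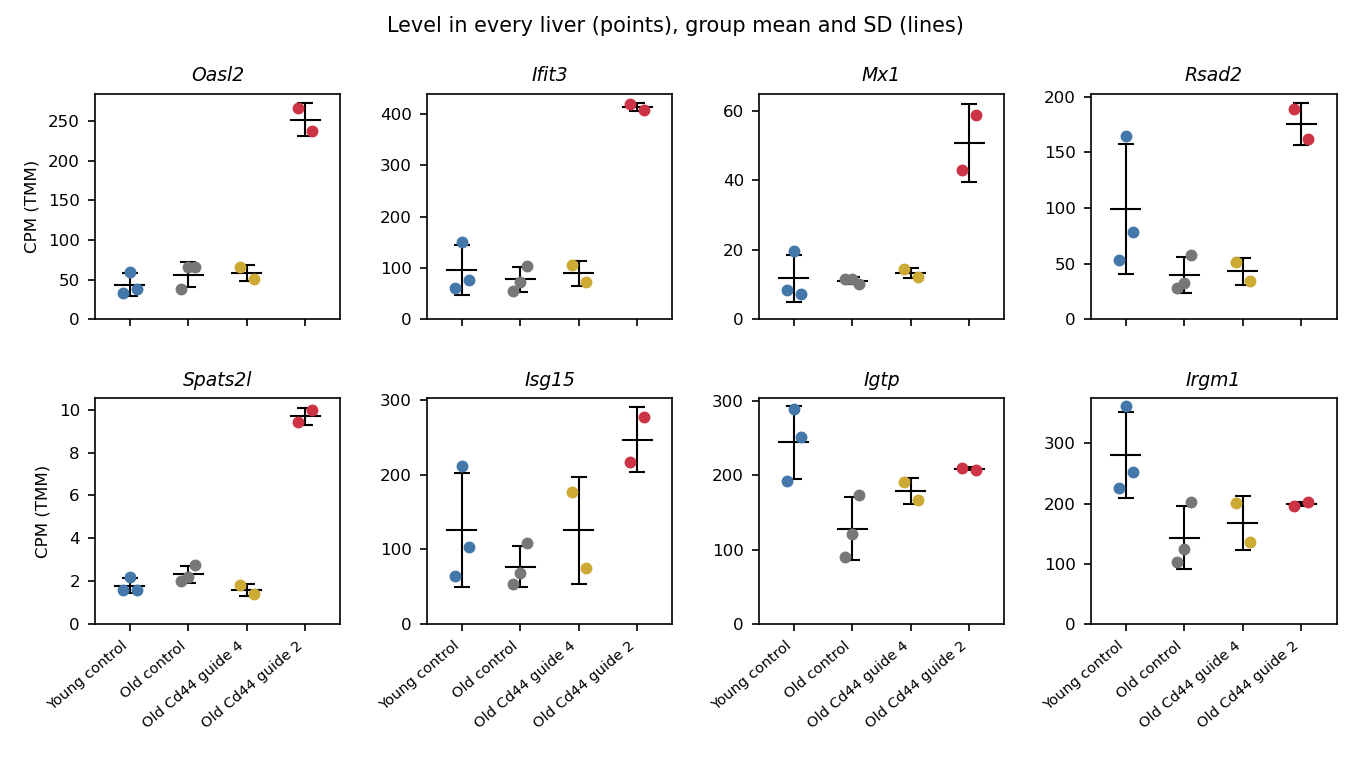
Level in CPM (vertical axis, linear from 0) of 8 members in every liver, by group; points are livers and lines give the group mean and SD. Oasl2, Ifit3, Mx1 and Spats2l separate both guide 2 livers from the other 8, 1 young liver lies within the guide 2 range of Rsad2 and just below that of Isg15, and Igtp and Irgm1 are highest in young control replicate 2.

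Among the other antiviral effectors, Mx1 encodes a GTPase that traps influenza-like viruses, and Rsad2 encodes viperin, a radical enzyme that makes a chain-terminating nucleotide. Mx1 stood at 42.8 and 58.8 CPM in guide 2 livers, 11.6, 11.7 and 10.1 CPM in old controls, 14.4 and 12.3 CPM in guide 4 livers and 8.38, 19.7 and 7.41 CPM in young controls. Its log2 fold change against old controls was 2.19 (SE 0.34, edgeR adjusted p = 0.0709). Rsad2 stood at 189 and 162 CPM in guide 2 livers, 27.9, 33.0 and 58.1 CPM in old controls, 51.7 and 34.2 CPM in guide 4 livers and 53.2, 165 and 78.6 CPM in young controls. For Rsad2 the log2 fold change was 2.15 (SE 0.44, edgeR adjusted p = 0.196), and young replicate 2 lay within the guide 2 range. Cmpk2, the neighbour of Rsad2 on chromosome 12 and the kinase that supplies its substrate, was 81.7 and 90.7 CPM in guide 2 livers, 24.2 to 38.3 CPM in old controls, 46.1 and 29.5 CPM in guide 4 livers and 38.9, 95.6 and 41.3 CPM in young controls, so young replicate 2 lay above both guide 2 livers. Bst2, which encodes tetherin, a protein that holds budding virus at the cell surface, was 415 and 469.6 CPM in guide 2 livers against 224 to 288 CPM in old controls. Mx2, Rtp4 and Trim30a had smaller log2 fold changes of 0.62, 0.34 and 0.72 with guide 2, each with an unadjusted p above 0.05.

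The ISG15 system attaches the ubiquitin-like protein ISG15 to other proteins, with HERC6 as ligase and USP18 as the protease that removes it and also dampens the receptor. Isg15 stood at 217 and 278 CPM in guide 2 livers, 54.0, 68.7 and 108 CPM in old controls, 176 and 74.9 CPM in guide 4 livers and 64.6, 212 and 103 CPM in young controls. Both guide 2 livers were thus above the other 8, but by little over young replicate 2. Its log2 fold change against old controls was 1.68 (SE 0.49, edgeR adjusted p = 0.475). Usp18 had a log2 fold change of 0.96 (SE 0.35) and Herc6 of 0.49 (SE 0.34), neither past the adjusted threshold.

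Transcription factors had a median log2 fold change of 0.08 with guide 2, and the nucleic acid sensors and kinases one of 0.67. Irf7, which encodes the factor that amplifies type I interferon production, stood at 495 and 569 CPM in guide 2 livers and between 213 and 352 CPM in the other 8, and its difference from old controls was a log2 value of 0.91 (SE 0.19, edgeR adjusted p = 0.228). Stat2, Irf9 and Irf1 had log2 fold changes of 0.10, 0.07 and -0.05. Of the RNA and DNA sensors, Ifih1, which encodes MDA5, stood at 97.1 and 98.6 CPM in guide 2 livers, 35.3, 45.4 and 85.7 CPM in old controls, 70.7 and 43.1 CPM in guide 4 livers and 55.7, 89.6 and 57.5 CPM in young controls. Both guide 2 livers lay above the rest, but the distance to the highest was small, and the log2 fold change of Ifih1 was 0.82 (SE 0.36, edgeR adjusted p = 0.701). Dhx58, Zbp1, Eif2ak2 and Ddx58 had log2 fold changes of 0.67, 0.68, 0.45 and 0.37, all with an unadjusted p above 0.05.

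Interferon-inducible GTPases on the list are the GBP proteins, which coat intracellular microbes, and the IRG proteins. Gbp9 stood at 21.4 and 22.2 CPM in guide 2 livers, 7.86, 10.6 and 11.02 CPM in old controls, 7.50 and 8.42 CPM in guide 4 livers and 4.71, 5.54 and 4.69 CPM in young controls, and Gbp3 at 106 and 96.4 CPM in guide 2 livers, 39.2, 45.3 and 60.7 CPM in old controls, 59.4 and 46.1 CPM in guide 4 livers and 29.4, 45.3 and 34.5 CPM in young controls. In neither gene did a guide 2 liver overlap any other. Their log2 fold changes against old controls were 1.15 (SE 0.18, edgeR adjusted p = 0.0709) and 1.06 (SE 0.22, edgeR adjusted p = 0.222). Gbp6, Gbp7 and Gbp2 had log2 fold changes of 0.95, 0.67 and -0.18, and 86% of the 75-base windows of Gbp6 also occur in another gene model, so its count is uncertain. The IRG GTPases Igtp, Irgm1 and Iigp1, which act on vacuoles that hold parasites, had log2 fold changes of 0.71, 0.48 and 0.30. In Igtp the guide 2 livers lay within the young range, and in Irgm1 and Iigp1 both lay below every young liver.

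PARP9, DTX3L and PARP14 form or act beside an ADP-ribosylation and ubiquitin complex that modulates interferon signalling, and their genes differed little with guide 2, with log2 fold changes of 0.30, 0.19 and 0.35. Of the remaining members, Ifi44 was 157 and 149 CPM in guide 2 livers and 38.5, 39.7 and 81.6 CPM in old controls, a log2 difference of 1.52 (SE 0.38, edgeR adjusted p = 0.35). Xaf1, Ifi27 and Ifi35 had log2 fold changes between 0.63 and 0.79, Lgals3bp of 0.12 and Epsti1 of -0.14. The 3 members below 0 were therefore Irf1, Gbp2 and Epsti1.

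**Figure D3:**
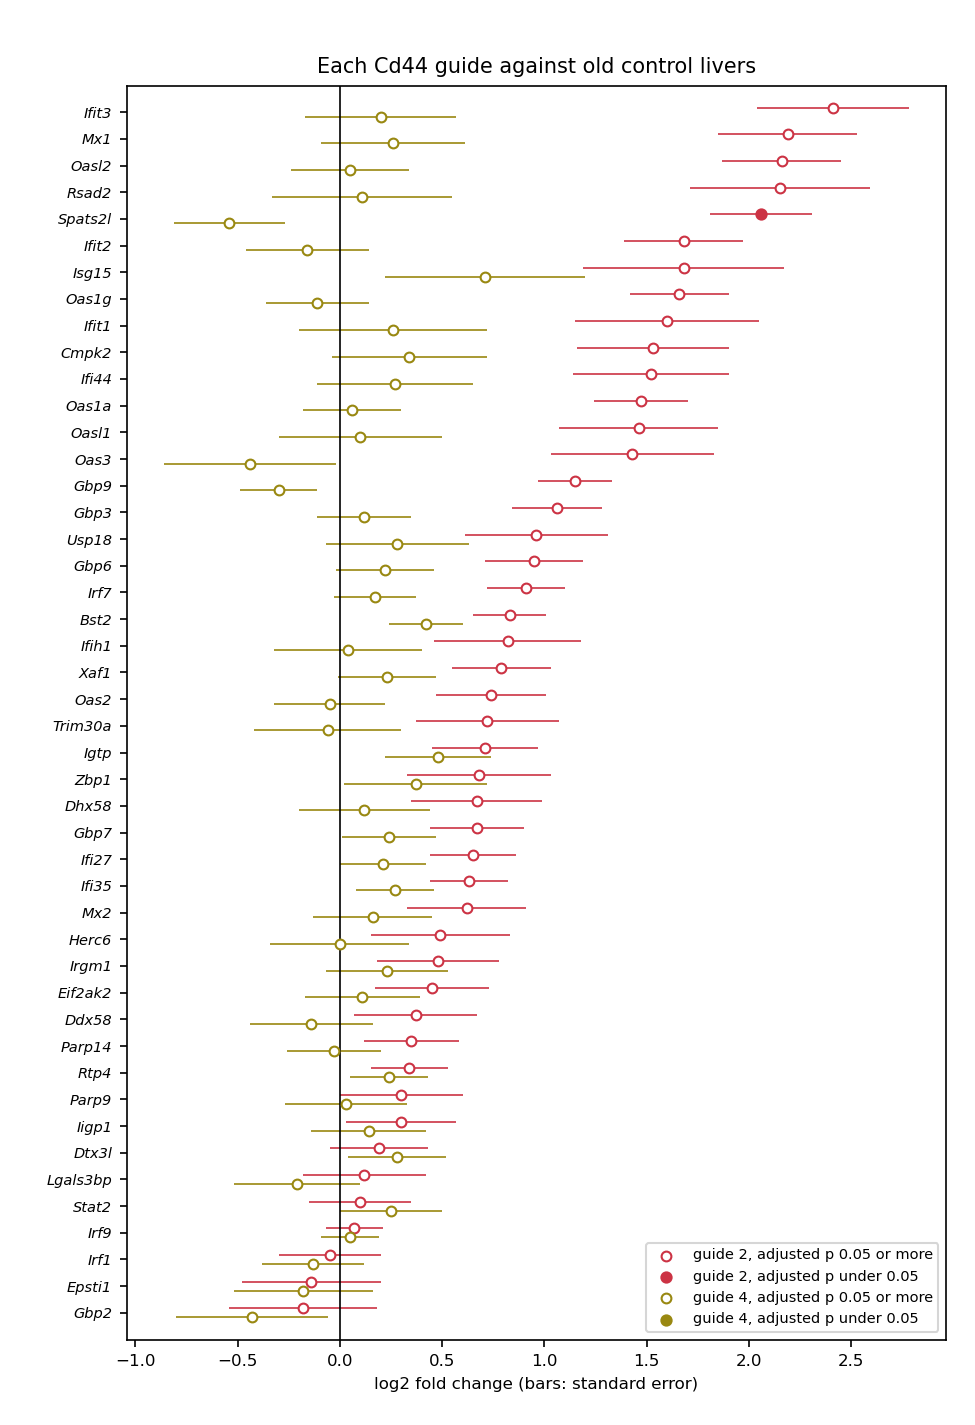
Log2 fold change of each member (horizontal axis, bars give the standard error) in guide 2 livers and in guide 4 livers, each against the 3 old controls; filled points passed an adjusted p under 0.05. Guide 2 values run from -0.18 for Gbp2 to 2.41 for Ifit3, and Spats2l is the filled point, while no guide 4 value reaches 1.

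Guide 4 livers held these genes near the level of the old controls. Against old controls, 0 members passed the adjusted threshold and 0% of all genes did. The median log2 fold change of the 46 genes was 0.12, against -0.03 for all genes, 0 members reached a log2 fold change of 1 (0.424%), and 32 of 46 values were positive (44.6% of all genes). By edgeR, 1 member, Bst2, had an unadjusted p under 0.05 in the higher direction (1.83% of all genes), and DESeq2 and limma voom also called 0 members. Bst2 was 337 and 328 CPM in guide 4 livers against 288, 237 and 224 CPM in old controls, a log2 fold change of 0.42 (SE 0.18). Both guide 4 livers lay above the 3 old controls in 3 members, Mx1, Bst2 and Ifi35 (7.05% of all genes), and below them in 1, Spats2l (7.79%). The 2 guide 4 livers were unequal. Isg15 was 176 CPM in replicate 1 and 74.9 CPM in replicate 2, and replicate 1 had the higher mean level of the 46 genes.

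The difference between the guides was tested directly. Guide 2 livers were higher than guide 4 livers in 44 of 46 members by fold change (49.5% of all genes), with a median log2 fold change of 0.55 against 0 for all genes. By the adjusted threshold in edgeR 1 member, Spats2l, differed (0.0216% of all genes). The count was 10 with DESeq2, 1 with limma voom, 4 with no filter on low counts and 10 in a fit of the guide livers alone. Beside these alternative counts, too, no share over all genes is given. At an unadjusted p under 0.05, 18 members were higher with guide 2 (2.15%) and 0 lower (2.19%), and 14 had a log2 fold change of at least 1 (1.66%). Both guide 2 livers lay above both guide 4 livers in 36 members (20.4% of all genes) and below them in 0 (18.1%). Among the largest differences were Ifit3 at 2.21 (SE 0.43), Oasl2 at 2.11 (SE 0.33), Rsad2 at 2.03 (SE 0.50) and Mx1 at 1.93 (SE 0.39) on the log2 scale, with edgeR adjusted p of 0.25, 0.138, 0.442 and 0.281. For Isg15 the value was 0.98 (SE 0.55). The call of Spats2l was lost without young replicate 1, either guide 4 liver or either guide 2 liver.

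When both guides were pooled as 1 group of 4 knockout livers, which mixes these unequal pairs, 0 members passed by edgeR (0% of all genes), and DESeq2 and limma voom also called 0. At an unadjusted p under 0.05, 19 members were higher (2.57%) and 0 lower (4.02%), 42 of 46 had a positive log2 fold change (45.6%) and 11 reached at least 1 (0.51%). The median was 0.51 against -0.02 for all genes. Ifit3 had the largest value, 1.70 (SE 0.60, edgeR adjusted p = 0.744), with a mean of 252 CPM and an SD of 188 (n = 4) over livers at 419, 409, 106 and 72.3 CPM.

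With age, members of the list changed in both directions. Old controls differed from young controls in 7 of the 46 members, where 22.8% of all genes tested differed by edgeR, and in 2 (Epsti1 and Gbp9) in a fit of these groups alone. In the higher direction 1 member passed (14.1% of all genes) and in the lower direction 6 passed (8.66%). The median log2 fold change of the 46 genes was -0.24, against 0.04 for all genes, and 14 were positive (52.4% of all genes). The 3 old controls lay above the 3 young livers in 2 members, Gbp9 and Epsti1 (19.7%), and below them in 9 (18%), which were Irf9, Mx2, Cmpk2, Rtp4, Dtx3l, Gbp6, Igtp, Irgm1 and Iigp1.

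Epsti1, named for induction by stroma in epithelial cells and also expressed in macrophages, was the member that rose. It stood at 6.09, 15.4 and 8.49 CPM in old controls and 3.30, 3.69 and 2.60 CPM in young controls, with 8.02 and 9.60 CPM in guide 4 livers and 9.18 and 8.99 CPM in guide 2 livers. All 7 old livers thus lay above the 3 young ones. Its log2 fold change with age was 1.64 (SE 0.30, edgeR adjusted p = 0.0092), and the call held in all 16 alternative fits, with an adjusted p from 3.55e-05 to 0.0428.

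The 3 IRG GTPases on the list all fell with age. Igtp, on chromosome 11, stood at 89.6, 121 and 173 CPM in old controls and 192, 289 and 251 CPM in young controls, with 191 and 166 CPM in guide 4 livers and 210.1 and 207 CPM in guide 2 livers. Irgm1, on the same chromosome, stood at 102, 125 and 202 CPM in old controls and 226, 361 and 252 CPM in young controls, with 200.1 and 136 CPM in guide 4 livers and 196 and 202 CPM in guide 2 livers. Iigp1 stood at 409, 499 and 793 CPM in old controls and 842, 1243 and 887 CPM in young controls, with 677 and 568 CPM in guide 4 livers and 693 and 705 CPM in guide 2 livers. Old control replicate 3 came close to the young range in each of these, and no old liver of any group exceeded the young median of Irgm1 or Iigp1. The log2 fold changes with age were -0.93 (SE 0.23, edgeR adjusted p = 0.0192), -0.97 (SE 0.27, adjusted p = 0.0272) and -0.81 (SE 0.24, adjusted p = 0.0356).

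Dtx3l, a ubiquitin ligase gene, Rtp4, which encodes a chaperone of receptors that also acts against viruses, and Irf9, a DNA-binding part of the complex that acts on the ISRE, fell as well. Dtx3l was 45.7, 54.8 and 88.6 CPM in old controls against 92.8, 113 and 105 CPM in young controls (log2 fold change -0.71, SE 0.21, edgeR adjusted p = 0.0341), and the guide 4 livers held 82.0 and 71.2 CPM, the guide 2 livers 75.5 and 68.4 CPM. Rtp4 was 64.3, 69.5 and 79.6 CPM in old against 85.6, 133 and 103 CPM in young controls (-0.59, SE 0.17, edgeR adjusted p = 0.0289), and the guide 4 livers held 91.5 and 75.9 CPM, the guide 2 livers 88.4 and 92.0 CPM. Irf9 was 63.2, 64.6 and 74.4 CPM in old against 89.9, 99.1 and 85.7 CPM in young controls (-0.44, SE 0.12, edgeR adjusted p = 0.0236), and 65.4 to 73.7 CPM in all 4 knockout livers. These 3 genes had no overlap between old and young controls in TMM-scaled levels. The TMM factors were 0.8235 to 0.8972 in young controls and 0.9661 to 1.116 in old controls. This scaling raises young levels relative to old ones, and the lack of overlap depends on it.

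**Figure D4:**
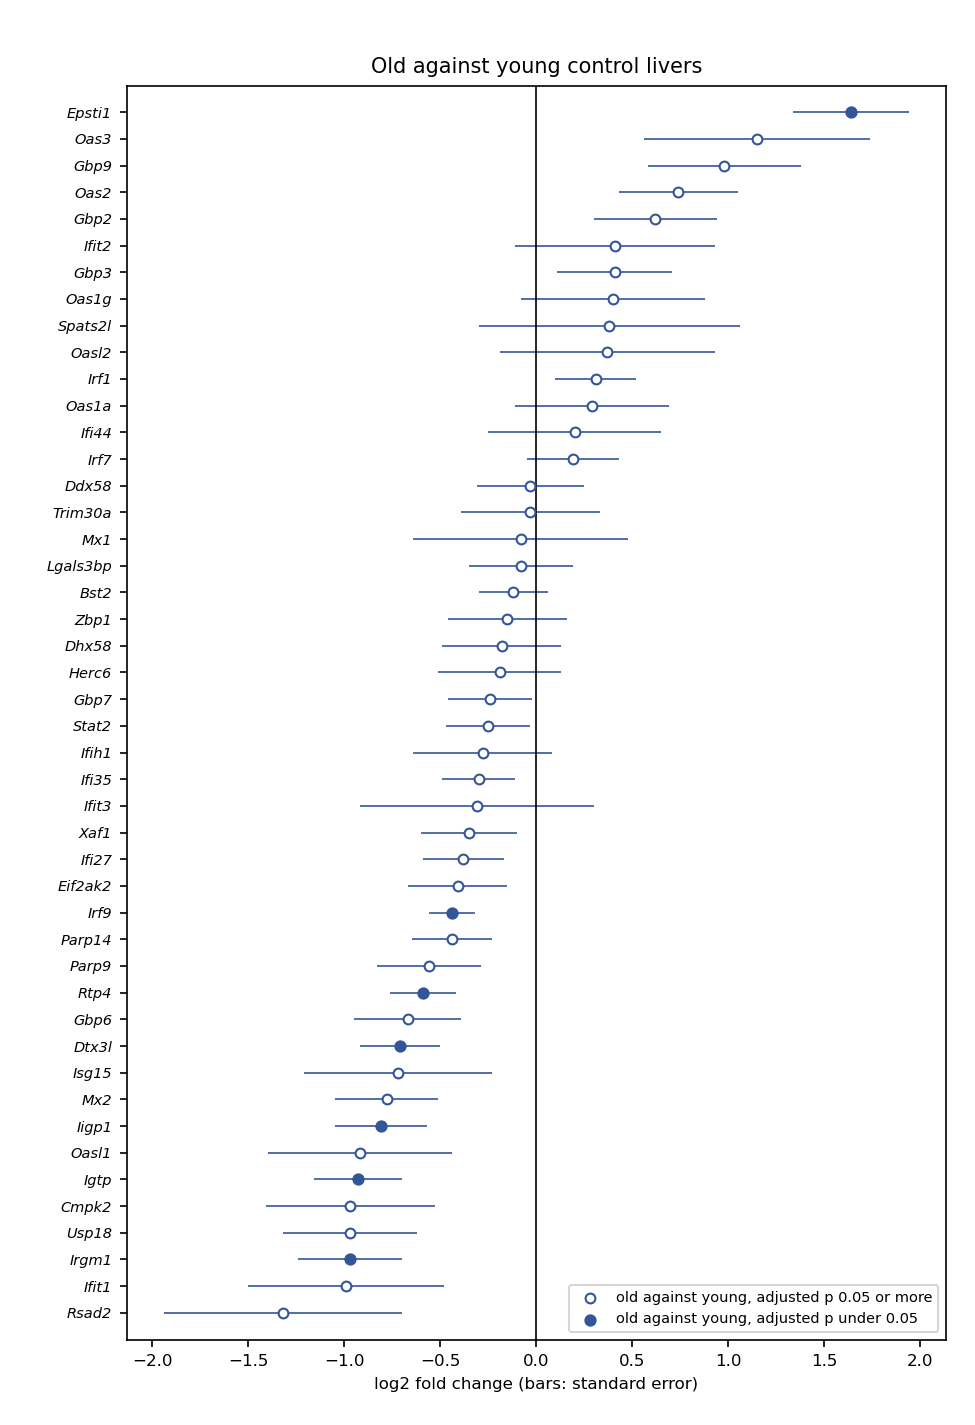
Log2 fold change of each of the 46 members in old against young control livers (horizontal axis, bars give the standard error), ordered by value; filled points passed an adjusted p under 0.05. Epsti1 is the filled point on the right at 1.64, and the 6 filled points on the left are Irf9, Rtp4, Dtx3l, Iigp1, Igtp and Irgm1.

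Apart from Epsti1, the largest differences with age stood in noisier genes. On the log2 scale Rsad2 differed by -1.32 (SE 0.62), Oas3 1.15 (SE 0.59), Ifit1 -0.99 (SE 0.51) and Gbp9 0.98 (SE 0.40), with edgeR adjusted p of 0.142, 0.178, 0.179 and 0.0969. In Rsad2 and Ifit1 the young values were spread widely, and young replicate 2 was the highest of the young livers in both. Across the list young replicate 2 was highest of the 8 livers other than guide 2 in 27 of 46 members, and at or above the lower guide 2 liver in 23 of 46. These ranks were not set against all genes, so they describe the list only. Without young replicate 2, 1 member differed with age, Epsti1, and the same count was obtained without old control replicate 2. Without old control replicate 3 the number was 13, with no share over all genes beside it. The 6 lower calls therefore rest on single livers, although each of the 6 kept a negative log2 fold change in all 16 alternative fits.

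Old knockout livers against young controls, which share the young livers with the comparison above, gave 5 called members (11.6% of all genes), 4 higher (6.64%) and 1 lower (4.97%). Gbp9, Epsti1, Oas2 and Gbp3 were higher, by log2 fold changes of 1.58 (SE 0.38), 1.48 (SE 0.29), 1.14 (SE 0.29) and 1.08 (SE 0.29), with edgeR adjusted p of 0.031, 0.0178, 0.035 and 0.0376. Irf9 was lower, with a log2 value of -0.39 (SE 0.11, edgeR adjusted p = 0.0436). In Epsti1 and Irf9 the knockout livers lay near the old controls, and in Gbp9 and Gbp3 the guide 2 livers lay above all others. This count was 15 with DESeq2, 1 with limma voom, 15 in a fit of the groups compared alone and 12 with 4 coefficients. It was 0 without young replicate 1, 2 or 3, 1 without either guide 2 liver and 14 without old control replicate 3. Shares over all genes are not given for these alternative fits.

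The rest of the pathway was examined through lists of its ligands, receptors, sensors and other targets. Of 21 interferon ligand genes 0 passed the filter, and 17 had 0 counts in all 10 livers, which at this depth allows up to 0.19 CPM in the shallowest library. Ifng had 0 to 6 counts and Ifnb1 0 to 3 counts per liver, with 3 counts of Ifnb1 in guide 2 replicate 2 and 1 in guide 2 replicate 1. Such counts are at or near the floor and support no comparison. Of the 10 receptor and JAK-STAT genes 0 were called with guide 2, and their median log2 fold change was -0.11. Ifnar1, Ifnar2, Ifngr1 and Ifngr2 had log2 fold changes of -0.11, -0.05, -0.33 and -0.11 with guide 2, and Ifnlr1, which encodes the specific chain of the type III receptor, of -0.14 (SE 0.74).

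The 20 upstream sensor and adaptor genes had a median log2 fold change of -0.27 with guide 2, with 0 called, and the 18 negative regulators -0.11, with 0 called. Of 56 other type I targets tested, 48 had a positive log2 fold change with guide 2 (45.1% of all genes tested), and the median was 0.34. An unadjusted p under 0.05 was found for 17 in the higher direction (2.91%) and 0 in the lower direction (4.13%), and 0 were called (0.0216%). The largest values, chosen after they were seen, were Ifit3b at 2.46 (SE 0.46, edgeR adjusted p = 0.132), Slfn4 at 1.96 (SE 0.31, edgeR adjusted p = 0.0709) and Phf11d at 1.20 (SE 0.22, edgeR adjusted p = 0.132). Because of the windows shared with Ifit3, part of the Ifit3b count may belong to that member. Slfn4, a myeloid Schlafen gene, stood at 22.3 and 21.0 CPM in guide 2 livers and at most 6.38 CPM in the other 8. Of 31 other type II targets, 8 had an unadjusted p under 0.05 in the higher direction (2.91% of all genes tested) and 2 in the lower direction (4.13%). Of these 31, 0 were called, and the median was 0.16.

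With age, 14.1% of all genes tested rose and 8.66% fell, and counts of the wider pathway are given beside these shares. Among sensors and adaptors 7 of 20 rose and 3 fell. Those that rose included the endosomal RNA receptors Tlr7 and Tlr8 and the DNA sensor Aim2 with log2 fold changes of 2.15 (SE 0.53), 1.98 (SE 0.56) and 1.74 (SE 0.34). The adaptors Ticam1, Myd88 and Mavs fell, by -0.86 (SE 0.21), -0.71 (SE 0.15) and -0.52 (SE 0.15). Of the 10 receptor and JAK-STAT genes, Il10rb and Tyk2 rose, by 1.31 (SE 0.26) and 0.33 (SE 0.10). Ptpn6 and Samhd1 rose and Ptpn2 fell among the 18 negative regulators, with values of 0.96, 0.58 and -0.50. Of the other type I targets 8 of 56 rose, led by Sdc3, Slfn2 and Ms4a4c, and of the type II targets 4 of 31 rose, among them Gbp8, Ciita and Gbp4 at 2.11, 1.64 and 0.67. Both of these counts are near the share over all genes. All of these passed an edgeR adjusted p under 0.05.

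Markers of other liver cells moved beside these results. With age 7 of 10 monocyte and macrophage markers, 6 of 8 Kupffer cell markers, 6 of 11 T and NK cell markers, 7 of 8 endothelial markers, 4 of 5 neutrophil and myeloid precursor markers and 5 of 8 stellate cell markers rose, where 14.1% of all genes did. Of 8 B and plasma cell markers 4 rose and 1, Xbp1, fell, from a mean of 609 CPM to 268.6 CPM. The log2 fold change was positive for 7 of the 8. Of 6 megakaryocyte and erythroid markers 3 rose and 1, Alas2, fell, and of 4 plasmacytoid dendritic cell markers tested 2 rose. Of 10 hepatocyte markers 3 fell (8.66% of all genes), and 0 of 6 cholangiocyte markers were called. The summed monocyte and macrophage level was 54.6 to 96.2 CPM in young controls and 119 to 578 CPM in old controls. None of these lists had a marker at 0 in all livers. With guide 2 against old controls 0 markers of any list were called. Kupffer cell markers had a median log2 fold change of -1.37 with guide 2 (summed level 276 to 357 CPM, against 340.4 to 1161 CPM in old controls), endothelial markers -0.70, monocyte and macrophage markers -0.58 and T and NK cell markers -0.17. The lowest median was -2.34, for the 5 neutrophil and myeloid precursor markers tested. Their list summed to 299 CPM in old control replicate 2, but to 16.4 and 14.7 CPM in old control replicates 1 and 3, and to 3.74 to 9.97 CPM in young controls. In guide 2 livers it summed to 9.10 to 23.5 CPM, so this fall rests on old control replicate 2. The same liver held the highest Kupffer cell (1161 CPM) and monocyte and macrophage (578 CPM) sums of the old controls. Medians for megakaryocyte and erythroid, stellate cell and hepatocyte markers were -0.74, -0.43 and -0.03. Cholangiocyte markers and B and plasma cell markers each had a median of 0.32, and the 4 plasmacytoid dendritic cell markers tested one of 0.41. Falls were not particular to guide 2. With guide 4 the medians were -0.72 for Kupffer cell, -0.50 for endothelial, -0.61 for monocyte and macrophage and -2.65 for neutrophil and myeloid precursor markers. Stellate cell, megakaryocyte and erythroid, and cholangiocyte markers had guide 4 medians of -0.40, -0.43 and -0.48. Those of T and NK cell, B and plasma cell, plasmacytoid dendritic cell and hepatocyte markers were 0.48, 0.48, 0.34 and 0.05. Plasmacytoid dendritic cells are a main source of type I interferon, and their 8 markers summed to 24.02 to 28.8 CPM in guide 2 livers, 17.6 to 27.9 CPM in old controls, 18.9 to 24.3 CPM in guide 4 livers and 10.3 to 13.5 CPM in young controls. Most of this sum was 1 gene, Tcf4, so it is a weak measure of these cells. Tcf4 averaged 21.68 CPM with guide 2, 21.05 CPM in old controls, 17.62 CPM with guide 4 and 10.54 CPM in young controls. Siglech, a marker more restricted to these cells, was at 0.94 CPM or less in every liver. Hepatocyte markers summed to 95373 to 96579 CPM with guide 2, within the old control range. The part of cell composition in the differences of the interferon-stimulated genes was not tested.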

How the data were processed

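The authors deposited raw read counts per gene symbol, 1 column per liver, with no normalization. The submitters' processing notes name FastQC 0.11.8, Trim Galore 0.4.4, STAR 2.5.3a, HOMER and build mm10, and per the labels' protocols polyadenylated RNA was sequenced as paired 75-base reads. Use of strand is not given in the sources used here, so antisense and overlapping genes cannot be separated. Replicate numbers follow record order and pair no livers.

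Counts were tested in edgeR 4.0.16 (R 4.3.3) by the quasi-likelihood test with TMM factors and filterByExpr (minimum count 10, minimum total 15, by the 3 study groups). Age, pooled knockout and knockout against young came from a fit with 3 coefficients, and the guide comparisons from one with 4, each over all 10 livers. P-values were adjusted by Benjamini-Hochberg over 13909 genes, with calls at an adjusted p under 0.05. SE is the absolute log2 fold change divided by the root of F. Mean log2 CPM used a prior count of 2. Scripts were tested on simulated data.

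The members and lists were chosen with earlier results of these data known. Values per liver are given for called members (up to 8 per comparison), the 5 with the largest absolute log2 fold change with age, between guides and with guide 2, and at least 1 gene per role; others are described in ranges, or named after their values were seen. A gene of the pathway lists is not reported here. Alternatives were DESeq2 1.42.0, limma 3.58.1 voom, other size factors, filters, thresholds and sets of livers, and other motif letters. Positions are from GENCODE M21 and promoters from RefSeq. Intervals and floors cover counting error only.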

Additional observations from a re-analysis of the deposited data

Results flagged for a closer look

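Among the 4 old knockout livers, guide 4 replicate 2 lay far below the others in 2 of the 46 members. Eif2ak2, which encodes the kinase PKR, was 18.1 CPM there and 29.3 to 30.0 CPM in the other 3, so the gap to its neighbour took 0.949 of the whole range. For Irgm1 it was 136 CPM against 196 to 202 CPM, a gap of 0.917 of the range. Both values lay within the range of the old controls, which held 17.6, 17.4 and 30.7 CPM of Eif2ak2 and 102, 125 and 202 CPM of Irgm1. Chance gives about 1 such liver in 20 groups, or 2.3 among 46 genes, and 2 were found. Spats2l differed between the guides by a log2 fold change of 2.60 in the test of that difference itself.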

How the results depend on the processing

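Counts of called members depended on the tool and the livers. No share over all genes is given beside the alternative counts. They therefore do not show whether members gained or lost calls more often than other genes. With age, 7 became 2 (Epsti1 and Gbp9) with only the groups compared and 1 (Epsti1) when a fold change of 1 or more on the log2 scale was also required, and 1 to 13 when single livers were left out. Old knockout against young, 5 became 15 with DESeq2, 1 with limma voom, 15 in a fit of the groups compared alone and 12 with 4 coefficients, and 0 to 14 without single livers. Between guides, 1 became 10 with DESeq2, 4 with no filter and 10 with only the groups compared, and 0 to 4 without single livers (4 without old control replicate 1). With guide 2, 1 became 16 with DESeq2, 4 with limma voom, 8 with no filter, 0 in a fit of the groups compared alone and 2 (Spats2l and Oasl2) with the filter by 4 groups, which was chosen after seeing the data. Without single livers it was 0 to 5 (5 without young replicate 2), and the median log2 fold change stayed between 0.71 and 0.97. Guide 4 and pooled knockout gave 0 in every alternative. The ISRE share of 54.5% became 33.3% with a longer motif that adds CT after the core. The cause of these shifts was not tested. For single members, 279 of 324 values kept direction and call, 13 lost and 32 gained a call and 0 changed sign. Of 540 values without a single liver 464 kept both and 6 changed sign. Between guides these were Epsti1 at -0.08 (range -0.08 to 0.18) and Dtx3l at 0.02 (-0.19 to 0.02) without guide 4 replicate 1, and Irgm1 at -0.01 (-0.01 to 0.55), Rtp4 at -0.02 (-0.02 to 0.25) and Irf9 at -0.06 (-0.06 to 0.11) without guide 4 replicate 2. With guide 2 it was Epsti1 at 0.32 (-0.39 to 0.32) without old control replicate 2. A group left with 1 liver was assumed to vary like the others. No paired analysis was possible because replicate numbers here follow record order and the labels tie no liver to another.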
